A study of Mus musculus with 2 samples.

Results

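The Mir26 family of the mouse comprises 3 miRNA genes, Mir26a-1, Mir26a-2 and Mir26b, each within a gene for a small phosphatase of the Ctdsp group. They were chosen by gene name, with their counts in these libraries already known, and are 3 of the 2202 miRNA genes that were counted. Small RNA inserts below 30 nt were sequenced from total RNA of adrenal gland, which secretes steroids from its cortex and catecholamines from its medulla. There is 1 group of 2 libraries, from the inbred mouse strain C57BL/6J. The labels call the tissue wild type and male in free text, but the sex field says not collected, and age and developmental stage are unknown. Although the labels number the libraries as biological replicates with separate biosample records, they share 1 donor record, so the spread between them may be technical. With no treatment, no second tissue and no second genotype, the values below are levels and a spread between replicates.

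MicroRNAs are short RNAs cut from a hairpin precursor. An Argonaute protein carries the mature strand to messenger RNAs that pair with its seed, the stretch from base 2 to base 8, and those messenger RNAs are then repressed. Members of the Mir26 family are widely expressed in differentiated tissues and are known to restrain proliferation, in part by repressing Ezh2, the histone methyltransferase of Polycomb complex 2. The host genes Ctdspl, Ctdsp2 and Ctdsp1 encode phosphatases that act on the C-terminal domain of RNA polymerase II and take part in silencing neuronal genes outside neurons. In zebrafish, miR-26b is known to repress its own host, ctdsp2, as neurons form.

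The mature sequences are printed here because they decide which reads can be placed at which gene. They come from RefSeq on build GRCm38.p6, in which all 3 members were found, and capitals mark the seed.
miR-26a-5p: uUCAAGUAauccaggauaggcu
miR-26b-5p: uUCAAGUAauucaggauaggu
miR-26a-1-3p: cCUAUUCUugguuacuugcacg
miR-26a-2-3p: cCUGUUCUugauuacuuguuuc
miR-26b-3p: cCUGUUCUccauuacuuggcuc
The 5p form miR-26a-5p was identical at Mir26a-1 and Mir26a-2, whereas each 3p form stood at 1 locus. All 3 members carried the 5p seed UCAAGUA, and among 1738 mature entries no other miRNA gene had it. Over the 21 bases that miR-26a-5p and miR-26b-5p can be compared, 19 were identical. They differed by C11U and C21U, counted from the 5′ end with the base of miR-26a-5p first, and neither position lies in the seed. The 3p forms were less alike, with 16 of 22 bases identical between miR-26a-1-3p and miR-26a-2-3p and 18 of 22 between miR-26a-2-3p and miR-26b-3p. The last pair shared the 3p seed CUGUUCU, also found in miR-6932-3p and miR-7039-3p, while miR-26a-1-3p alone had the seed CUAUUCU.

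In the hairpins below, capitals mark the 5p and 3p arms, so that the bases flanking the shared arm can be compared.
Mir26a-1: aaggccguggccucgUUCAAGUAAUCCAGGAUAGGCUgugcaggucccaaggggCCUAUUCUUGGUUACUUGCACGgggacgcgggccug
Mir26a-2: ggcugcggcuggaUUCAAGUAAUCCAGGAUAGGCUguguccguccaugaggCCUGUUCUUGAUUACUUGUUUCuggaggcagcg
Mir26b: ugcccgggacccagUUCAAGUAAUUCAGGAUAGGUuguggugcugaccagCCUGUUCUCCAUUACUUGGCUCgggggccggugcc
The longest stretch common to Mir26a-1 and Mir26a-2 was 25 nt. It began at the first base of miR-26a-5p and ran 3 bases past its last base. The longest stretch that Mir26b shared with Mir26a-1 was 11 nt, and with Mir26a-2 it was 10 nt. A read that starts at the annotated first base of miR-26a-5p and follows the genome therefore had to be 26 nt long before it matched 1 of the 2 genes alone. If it started 1 base earlier, 18 nt, the shortest length tried, was enough. Every arm of Mir26b and each 3p arm of the family was already particular to 1 miRNA gene at 18 nt. These lengths were worked out among the hairpins of the 2202 counted genes, not over the whole genome. The deposited tables keep reads that map to several places in a line of their own, with 6718323 reads for replicate 1 and 2415794 for replicate 2. Reads of the full-length 5p form of Mir26a-1 and Mir26a-2 match both loci, so they would fall in that line, whose makeup by gene is not given. Their counts below are of uniquely placed reads and do not measure the amount of miR-26a-5p.

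**Figure D1:**
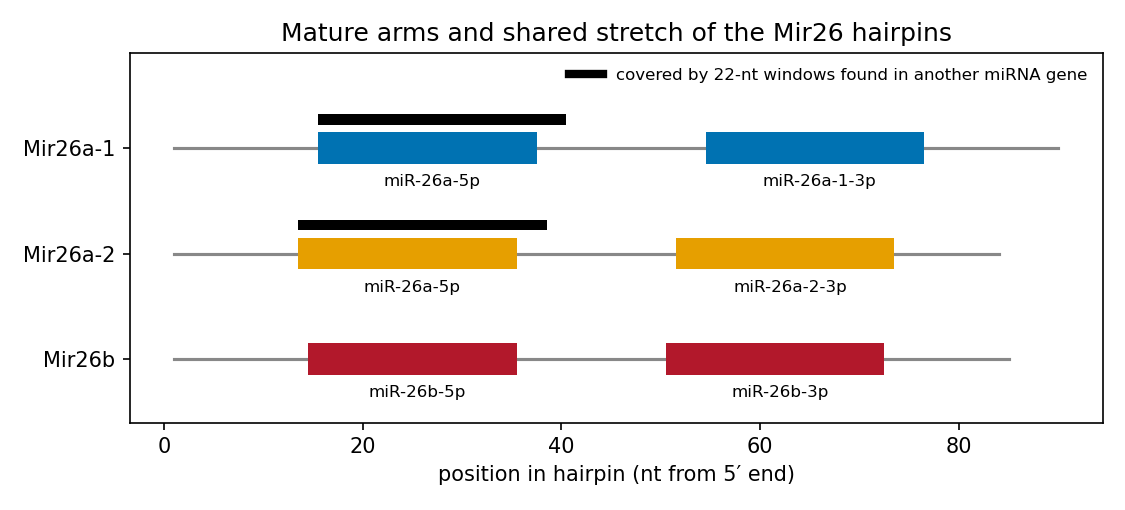
The 3 Mir26 hairpins drawn to scale in nt from the 5′ end, with mature arms as coloured bars and, as a black bar, the part covered by windows of 22 nt that are also found in another miRNA gene. The black bar spans 25 nt over the 5p arm of Mir26a-1 and of Mir26a-2, and Mir26b has none.

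The genes lay on 3 chromosomes, each on the plus strand and in an intron of its host on the same strand (build mm10, GENCODE M21). Mir26a-1 (ENSMUSG00000065513.1, chr9:119031796-119031885) lay in intron 5 of 7 of Ctdspl. Mir26a-2 (ENSMUSG00000065430.1, chr10:126995530-126995613) lay in intron 5 of 7 of Ctdsp2, and Mir26b (ENSMUSG00000065468.1, chr1:74394310-74394394) in intron 4 of 6 of Ctdsp1. In the principal transcript of each host, 2 introns followed the one with the hairpin, so the family occupied the same place counted from the 3′ end. The coding sequence before that intron was 426 nt in Ctdspl, 408 nt in Ctdsp2 and 378 nt in Ctdsp1, in each a whole number of codons. The coding sequence after it was 402 nt, 402 nt and 405 nt, without the stop codon. The introns themselves differed in size, with 3283 nt in Ctdspl, 1946 nt in Ctdsp2 and 564 nt in Ctdsp1.

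**Figure D2:**
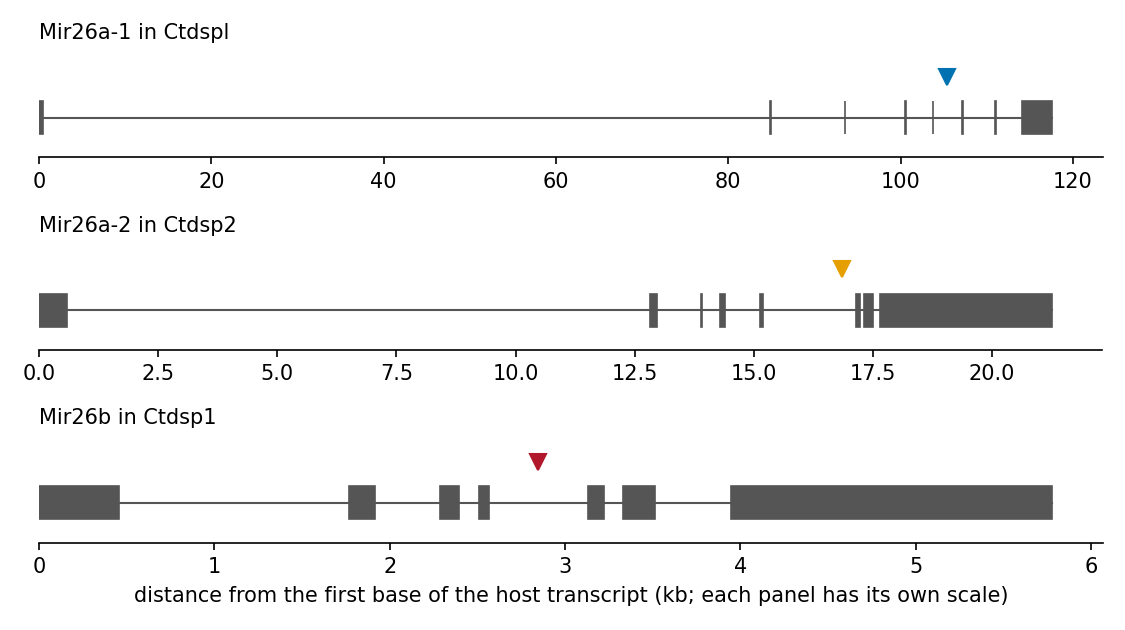
Exons (boxes) and introns (lines) of the principal transcripts of Ctdspl, Ctdsp2 and Ctdsp1 by distance from the first transcribed base in kb, each panel on its own scale, with a triangle at the Mir26 hairpin. The hairpin sits 105 kb, 16.8 kb and 2.80 kb from the start, and 3 exons follow it in each host.

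All 3 hairpins folded more stably per base than the median of 968 RefSeq miRNA hairpins of the counted genes. The minimum free energy from RNAfold was -49.4 kcal/mol for Mir26a-1, -44.5 for Mir26a-2 and -43.5 for Mir26b. Per base this was -0.55, -0.53 and -0.51 kcal/mol, beside a median of -0.41 over all hairpins. In the predicted fold, 20 of 22 bases of the 5p arm were paired in Mir26a-1, 19 of 22 in Mir26a-2 and 18 of 21 in Mir26b.

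Depth differed between the libraries. Counts assigned to miRNA genes on the gene's strand numbered 10263894 in replicate 1 and 3525666 in replicate 2. Unmapped reads made up 13.8% and 41.4% of all reads, while multimapping reads made up 37.8% and 38.8% of mapped reads. Among marker miRNAs, Mir375 and Mir7b of neuroendocrine cells stood at 68022 and 4743 CPM (assigned counts scaled to a depth of 1000000) in replicate 1, and at 76044 and 3557 CPM in replicate 2. Endothelial Mir126a and smooth muscle Mir143 were also abundant, with 89916 and 24738 CPM in replicate 1 and 95595 and 25539 CPM in replicate 2. The liver marker Mir122 had 104 and 97.6 CPM and the muscle marker Mir206 had 2.14 and 2.55 CPM. Of the 3 epithelial markers, Mir141 was below 10 CPM in both, Mir200c was below it in replicate 2, and Mir200b had 12.0 and 16.5 CPM. Leukocyte markers were at 314 and 434 CPM for Mir142 and at 136 and 264 CPM for Mir150. The kidney and gut marker Mir192 had 46.0 and 70.1 CPM and Mir194-2 had 25.6 and 11.3 CPM, the smooth muscle marker Mir145a had 880 and 1080 CPM, and the muscle marker Mir133b had 1 count and 0 counts. No marker of the adrenal cortex was available among the miRNAs, so the label was checked against medullary, vascular and foreign-tissue markers only.

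By uniquely placed reads, Mir26b, the member in Ctdsp1, was among the most abundant miRNA genes of the adrenal gland. Multimapping reads stay out of these counts, so its rank may be too high relative to genes with shared arms. Mir26b had 175442 counts in replicate 1, or 17093 CPM with an exact binomial 95% interval from 17014 to 17173 CPM. In replicate 2 it had 141676 counts, or 40184 CPM with an interval from 39979 to 40390 CPM. The level in replicate 2 was the higher of the 2 and the intervals, which cover counting error only, did not overlap. Its mean share was 2.86% ± 1.63 of assigned counts (SD, n = 2). It ranked 16 in replicate 1, between Mir322 at 17149 CPM and Mir411 at 12790 CPM. In replicate 2 it ranked 9, between Mir99a at 47509 CPM and Mirlet7i at 32337 CPM. The spread between replicates, an SD of 16328 CPM around a mean of 28639 CPM, went with a different set of neighbours in each library.

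Mir26a-2, the copy in Ctdsp2, had 169 counts in replicate 1 and 204 counts in replicate 2. These were 16.5 CPM (interval from 14.1 to 19.1) and 57.9 CPM (interval from 50.2 to 66.4). It ranked 255 and 195 among the miRNA genes, and it met the level taken as detection, 10 CPM in both replicates. Its mean was 37.2 ± 29.3 CPM (SD, n = 2).

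Mir26a-1, the copy in Ctdspl, had the lowest level of the family, with 39 counts and 94 counts. These were 3.80 CPM (interval from 2.70 to 5.19) in replicate 1 and 26.7 CPM (interval from 21.5 to 32.6) in replicate 2. It ranked 321 and 232. It reached 10 CPM in replicate 2 alone and was not counted as detected. Thus 2 of the 3 members were detected, beside 267 of the 2202 counted genes. Reads of the full-length 5p form match both copies and stay out of these counts, so this does not show that miR-26a-5p is absent. The mean of Mir26a-1 was 15.2 ± 16.2 CPM (SD, n = 2).

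**Figure D3:**
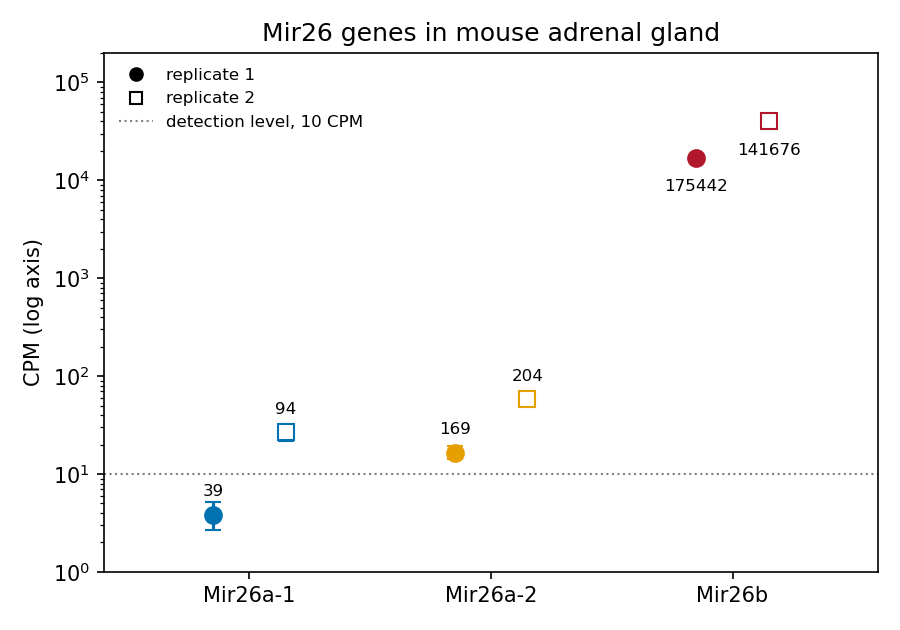
CPM of the 3 Mir26 genes on a log axis, with filled circles for replicate 1, open squares for replicate 2, exact binomial 95% intervals as bars and raw counts beside the points. Mir26b lies at 17093 and 40184 CPM, Mir26a-2 at 16.5 and 57.9 CPM and Mir26a-1 at 3.80 and 26.7 CPM, with replicate 2 the higher for each.

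The order Mir26b, Mir26a-2, Mir26a-1 was the same in both replicates. No scaling by length was applied, since reads were taken to come from the mature arms. The hairpins measured 90 nt (Mir26a-1), 84 nt (Mir26a-2) and 85 nt (Mir26b). Which arm or end variant gave the placed reads of the Mir26a copies cannot be told from counts per gene. Mir26a-2 exceeded Mir26a-1 by 4.33-fold in replicate 1, a log2 ratio of 2.12 with an exact binomial interval from 1.61 to 2.66. In replicate 2 it exceeded it by 2.17-fold, a log2 ratio of 1.12 with an interval from 0.76 to 1.49. The mean of this within-library log2 ratio was 1.62 ± 0.71 (SD, n = 2), and Mir26a-2 had more placed reads in 2 of 2 libraries. An SD of 2 values is too uncertain to judge the gap by. Full-length reads of the arm that both copies share are left out, so the ratio compares placed reads only. The intervals of the 2 libraries did not overlap, so the size of the gap differed between them beyond counting error.

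Mir26b gave nearly every uniquely placed read of the family. The copies in Ctdspl and Ctdsp2 together held 0.118% of the family's counts in replicate 1 (interval from 0.103% to 0.136%) and 0.210% in replicate 2 (interval from 0.187% to 0.235%). Mir26b stood 843-fold above their sum in replicate 1 and 475-fold above it in replicate 2, a mean log2 ratio of 9.31 ± 0.58 (SD, n = 2). This quantity compares a gene whose arms are both particular to it with genes that share their 5p arm, so it is a ratio of placed reads. The 3 genes together took 2.87% ± 1.64 of assigned counts, which is the Mir26b share within rounding. Full-length reads of miR-26a-5p are not in this value, so it is not the share of the whole family.

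**Figure D4:**
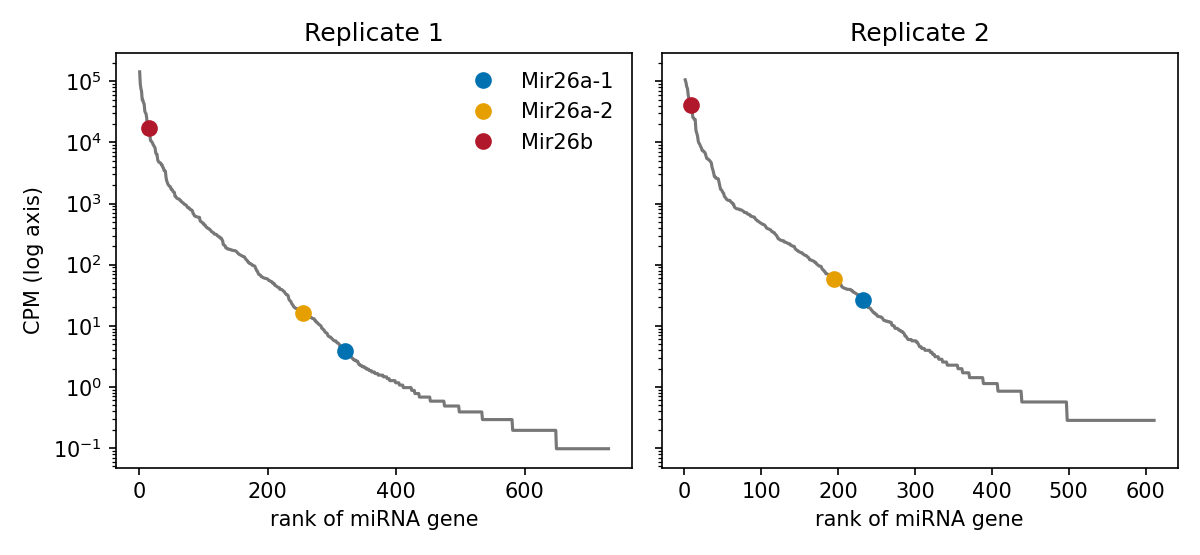
CPM (log axis) of every miRNA gene with at least 1 count, by rank, in replicate 1 (left) and replicate 2 (right). Mir26b sits near the top at ranks 16 and 9, and Mir26a-2 (ranks 255 and 195) and Mir26a-1 (ranks 321 and 232) sit far down the slope.

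In 3 other families with a mature form at 2 loci, the summed relatives at 1 locus also had more placed reads than the summed copies, with smaller gaps. Mir103-1 and Mir103-2, which like Mir26 lie in genes of a paralogous enzyme group (pantothenate kinases), had 29 and 216 counts in replicate 1 and 1 and 21 counts in replicate 2. Their relative Mir107 had 1310 and 372 CPM, 54.9-fold and 59.5-fold above the sum of the copies. Mir107 itself shared a stretch of 24 nt with each of them, whereas Mir26b shared at most 11 nt with a Mir26a gene. Reads wholly within the stretch of 24 nt would not be placed at Mir107. Whether that stretch covers its mature arm, and how far it lowers the count, was not examined. Mir7b stood 7.23-fold and 7.34-fold above Mir7-1 and Mir7-2 together. Mir30a, Mir30b, Mir30d and Mir30e together stood 62.2-fold and 111-fold above Mir30c-1 and Mir30c-2 together. This did not hold for each relative alone, since Mir30b had 179 and 168 CPM, below the 277 and 176 CPM of the Mir30c copies together. In both replicates the fold was highest in the Mir26 family, at 843 and 475, among the 4 families compared. These families were picked with earlier results known, and other genes with a shared arm were not compared. The shared stretches were 27 nt between the Mir103 copies, 24 nt between Mir7-1 and Mir7-2 and 28 nt between the Mir30c copies. Reads wholly within them match both copies, as for the Mir26a copies, and how many reads this set aside was not measured.

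The levels of Mir26a-1 and Mir26a-2 lay inside the range of genes built like them. Of the 2202 counted genes, 1018 had a mature sequence in RefSeq under the same symbol. Among these, 57 had some but not all of their arms at more than 1 locus, as the Mir26a genes do, and 30 of the 57 (52.6%) were detected. None of the 57 reached a mean of 10000 CPM, and their highest mean was 7922 CPM. In that class 26 genes had a lower mean than Mir26a-1 and 35 had a lower mean than Mir26a-2. Among the 924 genes with no shared arm, the class of Mir26b, 209 were detected (22.6%) and 17 of the 924 reached a mean of 10000 CPM. Genes at that level were rare in this class too, so finding none among the 57 is not read as a difference between the classes. Where all arms were shared, 5 of 37 genes (13.5%) were detected.

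All 3 members were higher in replicate 2 than in replicate 1. The log2 ratio of replicate 2 to replicate 1, with 0.5 counts added, was 1.23 for Mir26b, with an exact binomial interval from 1.22 to 1.24. It was 1.81 for Mir26a-2 (interval from 1.51 to 2.12) and 2.80 for Mir26a-1 (interval from 2.26 to 3.39). In CPM these were 2.35-fold, 3.51-fold and 7.02-fold. All 3 members therefore lay more than 2-fold higher in replicate 2, as did 16 of the 277 miRNA genes that averaged 10 CPM or more (5.78%). Mir26a-1 entered those 277 genes through replicate 2 alone. Its ratio was the highest of the 277, that of Mir26a-2 was the 4th highest and that of Mir26b the 11th. These ratios were known when the family was chosen, they set 1 library against 1 library, and nothing is read from the members' count.

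**Figure D5:**
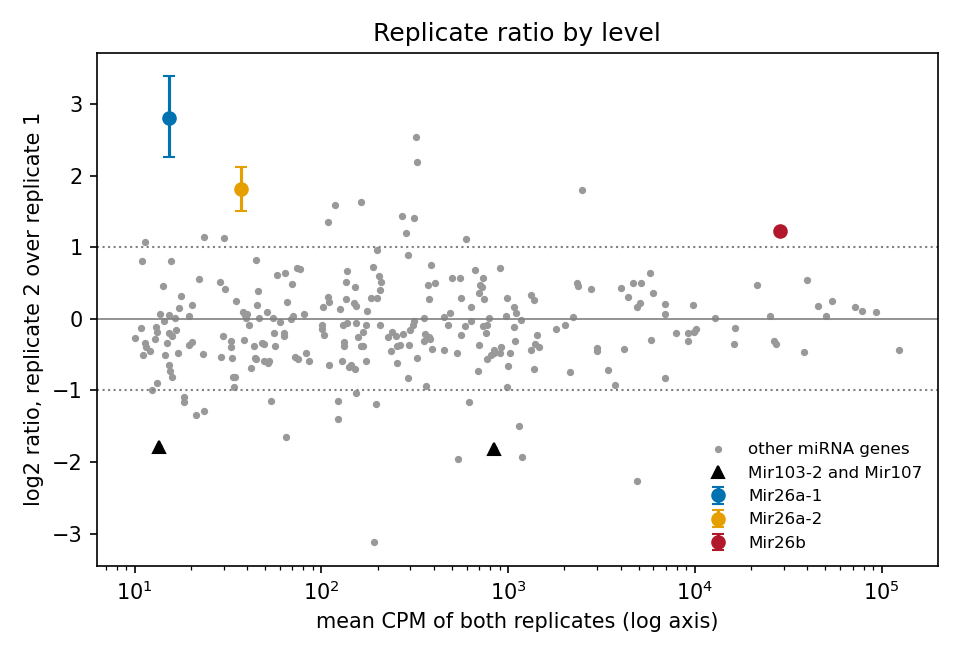
Log2 ratio of replicate 2 over replicate 1 against mean CPM (log axis) for the 277 miRNA genes that averaged 10 CPM or more. The Mir26 genes, with exact binomial 95% intervals, lie at 1.23, 1.81 and 2.80 above the dotted line of a 2-fold difference, and Mir103-2 and Mir107 lie below the opposite line.

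Other groups of miRNA genes moved differently between the same libraries. Over the 277 genes the median log2 ratio was -0.13, and 18 of them (6.5%) lay more than 2-fold higher in replicate 1. The log2 ratio was -1.82 for Mir107 and -1.79 for Mir103-2, the reverse direction of the Mir26 family. In the Mir30 family it was 0.21 for Mir30a, 0.07 for Mir30d and 0.31 for Mir30e, and it was -0.09 for Mir30b, -0.56 for Mir30c-1 and -0.70 for Mir30c-2. In the Mir7 family it was 0.41 for Mir7-2, -0.42 for Mir7b and -0.93 for Mir7-1. Mir451a, a miRNA gene of red blood cells, went from 8085 CPM to 1685 CPM and Mir144 from 272 to 119 CPM, against the direction of Mir26. The leukocyte markers Mir150 and Mir142, with log2 ratios of 0.96 and 0.47, and the kidney and gut marker Mir192, with 0.61, were higher in replicate 2 like Mir26, while Mir194-2 had -1.16. The part of blood or leukocyte content, of the larger unmapped share of replicate 2 or of the shared donor record in the Mir26 ratios was not tested.

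The miRNA genes with the most similar values over the 2 libraries were sought by distance on log2(CPM + 1). The nearest to Mir26b were Mir139, Mir143 and Mir99a, at distances of 0.69, 0.84 and 0.96. Mir139, which lies in the phosphodiesterase gene Pde2a, stood at 17967 CPM and 24921 CPM. Near Mir26a-2 were Mir181a-2, Mir128-1 and Mir410, at 0.52, 0.83 and 0.91, and Mir181a-2 had 18.9 and 41.1 CPM. Mir181a-2 and Mir128-1 also have an arm at more than 1 locus and are uncertain. Near Mir26a-1 were Mir452, Mir363 and Mir193b, at 1.07, 1.10 and 1.27. With 2 libraries, likeness here means a similar level in each and nothing more.

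No read was counted on the opposite strand of any member in either replicate. A count of 0 allows up to 3 counts, which is 0.292 CPM in replicate 1 and 0.851 CPM in replicate 2. The counts without regard to strand were the same as the sense counts for all 3 genes.

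The seed was also looked up in 3′ UTRs, where it could pair, as a description of sequence with no measurement of messenger RNA. The letters TACTTGA, complementary to bases 2 to 8 of miR-26a-5p and miR-26b-5p, were searched on the transcript strand of the 3′ UTRs of 20808 protein-coding genes, of which 9.09% held them. Of the 3 hosts, Ctdsp2 held 1 match, which began 1080 nt after the stop codon, and Ctdspl and Ctdsp1 held none in the UTR searched. Among 1829 UTRs within 1.25 times the length of that of Ctdsp2 either way, 23.2% held a match. Ezh2, named above as repressed by the family, held 1 match in 402 nt, beside 3.18% of 2043 UTRs of like length. Rb1, the retinoblastoma gene, held 1 match, beside 11.6% of 2907 UTRs of like length. Ezh2 and Rb1 were picked and not drawn from all genes, so these shares are no test of their matches. The matches of Ezh2 and Rb1 were followed by A, as in TACTTGAA, while that of Ctdsp2 was not. The sites are shown with the match in capitals.
Ctdsp2: cccaagtgttgctctTACTTGAttt
Ezh2: aatttgaataaagaaTACTTGAact
Rb1: taagtacccatgtagTACTTGAaag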

How the data were processed

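Per the labels, microRNA-seq libraries were made from total RNA of 2 adrenal gland samples of 1 group. The authors deposited raw counts per miRNA gene, 1 table per library, with 4 summary lines and 3 columns. Build mm10 and annotation GENCODE M21 are named in the accompanying description files, and adapters were trimmed per the labels' protocols. Names of the aligner and counter were not given in the sources used here. The second column, with no ambiguous read, was taken as counts on the strand of the gene. Summary lines stayed out of library sizes. Depth was 10263894 and 3525666 assigned counts.

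CPM, exact binomial 95% intervals (counting error only, since copies of 1 molecule cannot be recognised) and log2 ratios with 0.5 counts added were computed in Python 3.11.15 with scipy 1.17.1. No test between groups exists and no p-value is given. Scaling by TMM (edgeR 4.0.16, factors 0.994 and 1.006) and by DESeq2 1.42.0 size factors were alternatives. Sequences came from RefSeq (GRCm38.p6, the same build as mm10) and GENCODE M21 transcripts, and folds from RNAfold 2.7.2.

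The members, the comparison families, the markers and the UTRs searched were chosen with earlier results of these data known. Genes named are the members, the 3 nearest to each, genes with the same 5p seed, the families of Mir103, Mir7 and Mir30, and markers. Other genes are rank neighbours.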

Additional observations from a re-analysis of the deposited data

How the results depend on the processing

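Of 29 alternative values that kept both libraries, 25 stayed within the replicate SD, the counting interval or 1.5 times the count given above, 4 moved and 0 reversed. This tally is a weak check. The SD of 2 libraries is wide, so a Mir26b share of 1.63% over all mapped reads, beside 2.86%, counted as within it. The ratio of Mir26b to the copies could not change without regard to strand, since those counts equal the sense counts. The log2 ratio of Mir26b between replicates, 1.23, became 1.22 with TMM, 1.28 with DESeq2 size factors and 1.20 over all mapped reads, each outside its narrow counting interval and in the same direction. The count of miRNA genes more than 2-fold higher in replicate 2 rose from 16 of 277 to 87 of 574 (15.2%) when genes with at least 1 count in each replicate entered. It was 16 with TMM, 17 with DESeq2 size factors and 11 of 180 at a mean of at least 100 CPM.

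With 2 libraries, leaving 1 out gives the value of the other and is no check of stability. Without replicate 1 or without replicate 2, the Mir26b share was 4.02% or 1.71%, the Mir26a-2 share was 0.00579% or 0.00165%, the Mir26a-1 share was 0.00267% or 0.00038%, and the log2 ratio of Mir26b to the copies was 8.89 or 9.72. Over all mapped reads the Mir26b share was 1.63%. The counts of 39 and 94 for Mir26a-1 limit its precision, and reads set aside as multimapping limit what Mir26a-1 and Mir26a-2 show.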
